A study of Homo sapiens with 6 samples.

Results

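The genes described here act at the start and in the course of DNA replication: 57 genes that license and fire replication origins, build and protect the replication fork, join the finished strands, rebuild chromatin behind the fork, or belong to the E2F family of transcription factors. They were taken as the rows carrying 57 listed symbols, out of 59609 gene names measured, and all 57 were found. The list follows function, was chosen with earlier results of these data known, and was divided here into 8 roles.

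Before a cell replicates its DNA, the origin recognition complex (ORC), CDC6 and CDT1 load the MCM helicase onto origins, which is called licensing, and geminin (GMNN) binds CDT1 to stop origins from being licensed again. The kinase CDC7 with its activating subunit DBF4, and CDC45 and the GINS complex, then turn the loaded helicase into moving forks, where polymerases, the sliding clamp PCNA and its loader RFC copy the DNA. E2F factors bind the promoters of many of these genes and raise or repress their transcription around the entry into S phase, and in cultured tumour cells the whole set is usually expressed together as a mark of proliferation.

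RNA was sequenced from 95D cells, a human lung cancer line given as wild type, after 48 h in control DMEM, in DMEM without glucose or in DMEM without glutamine. All cells had first grown for 24 h in complete medium. Both deprived media contained 10% dialysed fetal bovine serum, while the labels give 10% fetal bovine serum for the control and name no dialysis, so the serum and the nutrient cannot be told apart. The control group had 2 libraries, glucose deprivation had 2, and glutamine deprivation entered with 1 of its 2 labelled libraries, because the other column of its table is headed as a glucose-deprived sample and was not mapped. The labels do not say whether libraries of a group are separate cultures, and a p-value here reflects the spread among these libraries alone, possibly a technical one.

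Values are FPKM, fragment counts normalised to transcript length and library size, divided by a scaling factor per library (0.960 to 1.08). They are per length, so comparisons of levels between genes rest on the gene lengths used, which are not given. The depth inferred from the values was 34520000 to 48920000 fragments per library. Over the 16600 genes tested, Pearson correlations of log2(FPKM + 1) across genes were 0.991 within the control group, 0.985 within glucose deprivation and 0.954 to 0.961 between groups. The small nuclear RNA RN7SK took 11.3% to 13.4% of the summed FPKM. As an epithelial line, 95D held KRT18 at 16.0 to 21.7 FPKM and KRT8 at 4.15 to 5.51 FPKM, while EPCAM, CDH1, KRT7 and KRT19 stayed under 1 FPKM in every library. Of 18 markers of other cell types, 1 reached 1 FPKM in each control and glucose-deprived library and 2 in the glutamine-deprived library, with summed levels of 3.81 to 6.27 FPKM. SYP, at 2.00 to 4.57 FPKM, reached it in every library and COL1A1, at 1.83 FPKM, in the glutamine-deprived library only. Against control their log2 fold changes were 0.66 and -0.21 without glucose and 0.36 and 0.81 without glutamine. CD3E, MS4A1, SFTPB and SCGB1A1 were listed at 0 throughout.

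The E2F recognition sequence was common in the promoters of these genes. RefSeq promoter windows (GRCh38.p14, 250 bases before to 50 after the annotated start) matched 49 of the 57 genes. MCM4, MCM5, GINS4, POLD3, RPA2, RPA3, DNA2 and E2F8 had no entry. The 8-base forms searched on both strands were TTTCCCGC, TTTCGCGC, TTTGCCGC and TTTGGCGC, which can overlap each other on opposite strands. At least 1 form stood in the windows of 25 of the 49 genes (51.02%), against 3.99% of the 27305 genes of the promoter table and 7.09% of the 9832 genes that were both tested and in it. In the upstream bases alone the shares were 36.73%, 3.40% and 5.98%. The cell cycle homology region, TTTGAA or TTCGAA, which marks many genes of mitosis, was in the windows of 2 of the 49 genes (4.08%) and of 15.09% of the tested genes. A match is a description of the letters in the window.

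The following 60-base windows lie upstream of the RefSeq start. They are shown because they carry E2F forms in genes that moved in different directions in the results below. In GENCODE release 29 exons of the same gene cover 23 bases of the window of POLE, 19 of E2F1, 4 of CDC7 and 3 of TIPIN. Capitals mark the E2F matches, and each sequence reads 5′ to 3′ on the strand of the gene.
POLE, chr12:132687343-132687402, minus strand: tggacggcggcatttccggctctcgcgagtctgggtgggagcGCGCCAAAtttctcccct
E2F1, chr20:33686386-33686445, minus strand: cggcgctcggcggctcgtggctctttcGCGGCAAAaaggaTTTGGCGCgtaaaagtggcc
E2F2, chr1:23531242-23531301, minus strand: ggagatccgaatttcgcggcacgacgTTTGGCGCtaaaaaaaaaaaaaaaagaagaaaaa
CDC7, chr1:91501052-91501111, plus strand: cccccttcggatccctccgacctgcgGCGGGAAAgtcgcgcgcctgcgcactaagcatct
PCNA, chr20:5126648-5126707, minus strand: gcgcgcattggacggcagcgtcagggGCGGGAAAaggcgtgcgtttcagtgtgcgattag
GMNN, chr6:24775307-24775366, plus strand: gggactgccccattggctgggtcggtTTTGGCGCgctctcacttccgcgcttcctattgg
MCM6, chr2:135876496-135876555, minus strand: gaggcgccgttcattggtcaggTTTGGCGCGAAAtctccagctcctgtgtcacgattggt
TIPIN, chr15:66356714-66356773, minus strand: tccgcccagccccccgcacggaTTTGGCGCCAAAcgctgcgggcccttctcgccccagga

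In MCM6 and TIPIN 2 matches overlap on opposite strands. In glucose deprivation an E2F match was present in 5 of the 10 genes that rose, in 12 of the 23 matched genes that fell and in 8 of the 16 that passed no test. In glutamine deprivation the counts were 4 of 6, 17 of 33 and 4 of 10. POLE rose in both media, PCNA and GMNN fell in both, and CDC7 rose in the one and fell in the other, all with an E2F match in the window shown.

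All 57 genes were expressed in every library, and all passed the filter of 1 FPKM in at least 1 library. Levels ran from E2F8, at 4.24 to 4.66 FPKM, to PCNA, at 148.5 to 219.5 FPKM. The median level of the 57 genes was 24.5 and 24.2 FPKM in the controls, 25.2 and 25.4 FPKM in glucose deprivation and 20.9 FPKM in glutamine deprivation. The least covered gene, E2F8, had at least 597 inferred fragments in each library. In bulk RNA, fewer cells in S phase and less RNA per cell cannot be told apart.

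In both deprived media more of the replication genes were lower than higher, and most differences were modest. In glucose deprivation 10 of the 57 rose, 28 fell and 19 did not pass the test, where a call is an adjusted p under 0.05 in limma's moderated test with Benjamini-Hochberg adjustment over all genes tested. The same rule called 54.5% of all 16600 genes, 26.4% higher and 28.1% lower, so that the 28 falling genes are above the background share and the 10 rising genes below it. In glutamine deprivation 6 rose, 39 fell and 12 did not pass, against 51.0% of all genes called, 24.7% higher and 26.3% lower. The median log2 fold change of the 57 genes was -0.13 in glucose deprivation and -0.21 in glutamine deprivation, against 0.03 and 0.05 over all genes tested. Among all genes tested, 4472 averaged 10 FPKM or more, as most of the replication genes did, and these had medians of -0.16 and -0.31, with 52.3% and 64.6% called lower and 21.3% and 10.8% called higher. The medians of the replication genes were not below those of genes at such levels.

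Because both comparisons use the same control libraries, their values are given side by side only. Of the 57 genes, 24 fell in both media, 5 rose in both (CDT1, TICRR, TIMELESS, POLE and LIG1) and 3 rose without glucose and fell without glutamine (CDC7, PRIM1 and RFC1). No gene fell without glucose and rose without glutamine. A further 12 fell only past the threshold of glutamine deprivation and 4 only past that of glucose deprivation, 2 and 1 rose in 1 comparison alone, and 6 passed neither test. All libraries of glucose deprivation lay below both controls for 36 genes and above both for 13, and the glutamine-deprived library lay below both controls for 43 and above both for 13. With so few libraries such separation is common by order alone. Neither it nor the joint calls above were counted over all genes, so no share stands beside them.

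**Figure D1:**
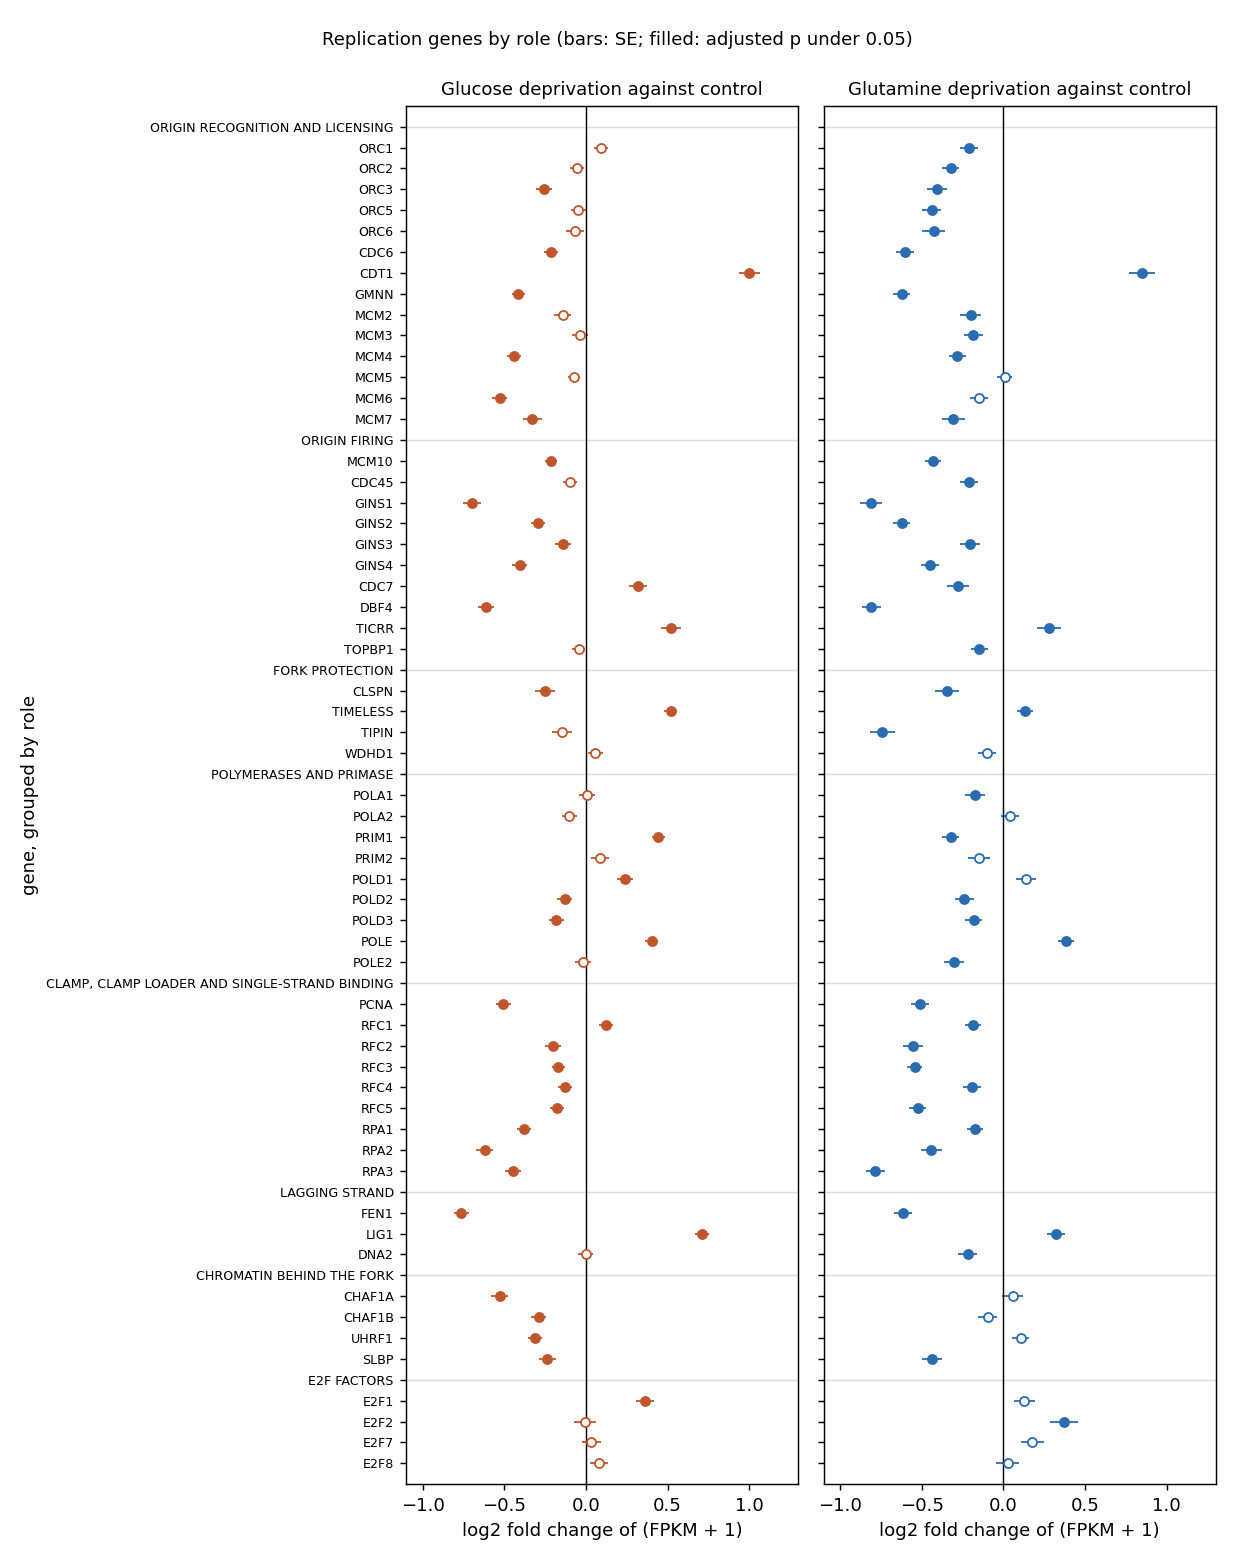
Log2 fold change of (FPKM + 1) of each of the 57 genes, grouped by role, in glucose deprivation (left, 2 libraries) and glutamine deprivation (right, 1 library) against 2 control libraries; bars are the standard error and filled points have an adjusted p under 0.05. CDT1 stands alone at 1.00 and 0.85, most clamp, loader and RPA genes lie left of 0 in both panels, and CDC7, PRIM1 and RFC1 lie on opposite sides of 0.

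The split between rising and falling genes depended on how libraries were scaled. With all libraries scaled to a common total the calls were 8 higher and 7 lower in glucose deprivation and 6 higher and 4 lower in glutamine deprivation, with the levels as deposited 10 and 24, and 13 and 21, and with upper-quartile scaling 9 and 35, and 3 and 44. The median of all genes moved with them, to 0.11 and 0.30 under the common total, and relative to it the median of the replication genes lay lower under each scaling, by -0.13 to -0.17 in glucose deprivation and -0.22 to -0.29 in glutamine deprivation. The 2 glucose-deprived libraries summed to 493129 and 565293 FPKM, while their main scaling factors were 1.01 and 0.98. Under the common total these replicates thus lay further apart, so a call lost there need not mean a changed value. Without the library Control 1 the genes called lower in glucose deprivation numbered 18, and without Control 2 they numbered 16 and all called genes 24. In glutamine deprivation 28 genes were called without Control 1, of them 3 higher and 25 lower, and 27 without Control 2, of them 23 lower. Under the common total the calls kept were, in glucose deprivation, CDT1, CDC7, TICRR, TIMELESS, PRIM1, POLE, LIG1 and E2F1 (higher) and MCM6, GINS1, DBF4, PCNA, RPA2, FEN1 and CHAF1A (lower), and in glutamine deprivation CDT1, TICRR, POLE, LIG1 and E2F2 (higher) and GINS1, DBF4, TIPIN and RPA3 (lower); each other call of the 57 genes in these 2 comparisons was lost there. With no filter on low values 13 calls of glucose deprivation were lost (ORC3, CDC6, MCM7, GINS3, CDC7, CLSPN, POLD1, POLD2, POLD3, RFC1, RFC2, RFC4 and SLBP, adjusted p = 0.0526 to 0.184) and 17 of glutamine deprivation (ORC1, ORC6, MCM2, MCM3, MCM7, CDC45, GINS3, CDC7, TICRR, TOPBP1, CLSPN, POLA1, POLD2, POLD3, RFC1, DNA2 and E2F2, adjusted p = 0.0521 to 0.18). In glucose deprivation the calls of CDT1, TICRR, TIMELESS, PRIM1, POLE, LIG1 and E2F1 (higher) and of MCM6, GINS1, DBF4, PCNA, RPA2, FEN1 and CHAF1A (lower) held in all alternatives run, and in glutamine deprivation those of CDT1 and LIG1 (higher) and GINS1, DBF4, TIPIN and RPA3 (lower) did.

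In glutamine deprivation the differences also went with the base composition of the transcripts, and in glucose deprivation they did so less clearly. The 6 genes that rose in glutamine deprivation had a median transcript GC content of 56.0% and the 39 that fell 44.8%, and in glucose deprivation the medians were 53.8% and 45.7%. Genes that passed no test had medians of 51.6% and 43.7%, which in glucose deprivation was below that of the genes that fell. Across the 57 genes, which share libraries and are not independent, the log2 fold change and GC content had a Pearson r of 0.56 in glutamine deprivation and 0.27 in glucose deprivation, against 0.18 and -0.03 over all genes. By rank (Spearman) the values for the 57 genes were 0.43 and 0.07. With a trend over GC content and length removed, the calls were 13 higher and 22 lower in glucose deprivation and 6 higher and 25 lower in glutamine deprivation. The part of base composition in single calls was otherwise not tested.

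Origin recognition and licensing held the gene with the largest rise. Of these 14 genes, 1 rose and 6 fell in glucose deprivation, and 1 rose and 11 fell in glutamine deprivation. Under the common total 1 was called higher and 1 lower in the first and 1 higher and 0 lower in the other. These counts and each count by role below stand beside 28.1% and 26.3% of all genes lower and 26.4% and 24.7% higher. Of genes averaging 10 FPKM or more, 52.3% and 64.6% were lower. Gene positions are those of GENCODE release 29 on GRCh38. CDT1, the loader of the MCM helicase at origins (chr16:88803213-88809258, plus strand), was at 27.1 and 25.2 FPKM in the controls, at 50.4 and 56.5 FPKM without glucose and at 47.9 FPKM without glutamine. All 3 deprived libraries stood far above both controls. Its log2 fold change was 1.00 ± 0.06 (SE, 2 libraries against 2, adjusted p = 2.39e-05, limma) in glucose deprivation and 0.85 ± 0.08 (1 against 2, adjusted p = 0.000128, limma) in glutamine deprivation, and no alternative changed either call. GMNN, the inhibitor of CDT1 (chr6:24774931-24786099, plus strand), went the other way, from 44.1 and 44.3 FPKM in the controls to 32.3 and 33.5 FPKM without glucose and 28.3 FPKM without glutamine. No deprived library overlapped the controls. The log2 fold changes were -0.41 ± 0.04 (adjusted p = 0.000165, limma) and -0.62 ± 0.05 (adjusted p = 9.57e-05, limma), and under the common total they were -0.30 and -0.31 with adjusted p-values of 0.115 and 0.180.

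The 6 subunits of the MCM helicase did not move as a block. MCM6 was at 58.9 and 60.4 FPKM in the controls, 42.3 and 39.9 FPKM without glucose and 53.7 FPKM without glutamine, so the glutamine-deprived library lay between the other groups. It fell in glucose deprivation, with a log2 fold change of -0.53 ± 0.04 (adjusted p = 7.44e-05, limma), and in glutamine deprivation the value was -0.15 ± 0.05 (adjusted p = 0.0557, limma). MCM4 and MCM7 also fell without glucose, by 0.44 and 0.33 on the log2 scale (MCM7 with an adjusted p of 0.0541 without Control 1, and at -0.22 with adjusted p = 0.327 under the common total), while MCM2, MCM3 and MCM5 did not pass, at -0.14, -0.04 and -0.07. Without glutamine MCM2, MCM3, MCM4 and MCM7 passed at -0.18 to -0.31, but under the common total these 4 values were 0.01 to 0.13. The calls of MCM2, MCM3 and MCM7 were lost without Control 1 (adjusted p = 0.162, 0.109 and 0.089) or Control 2 (0.171, 0.193 and 0.0778), and that of MCM4 without Control 2 (0.0545). MCM5 had the lowest FPKM of the subunits in every library, at 28.3 to 30.1, and MCM7 the highest, at 102.8 to 137.8. The place of MCM5 rests on the gene lengths used, with 7338 exon bases against 4599 in its longest transcript. The ratio of the highest to the lowest subunit was 4.59 and 4.55 in the controls, 3.62 and 4.06 in glucose deprivation and 3.66 in glutamine deprivation. Over the 5 ORC genes of the list this ratio was 1.91 to 2.25, with ORC1 the highest in every library. ORC4, counted below among the replication partners, was left out. It was lower than these 5 in every library, at 7.74 and 7.75 FPKM in the controls. Without glucose it was at 7.22 and 6.92 FPKM and without glutamine at 6.27 FPKM. With ORC4 the ratio would be higher, so the spread of ORC is not ranked against that of the MCM subunits. Of the 5 ORC genes only ORC3 passed without glucose, at -0.26 (adjusted p = 0.00368, limma; 0.0611 without Control 2, and -0.15 with adjusted p = 0.463 under the common total). All 5 passed without glutamine, at -0.21 to -0.44, and all 5 calls were lost under the common total, with ORC1 at 0.09, ORC2 at -0.03, ORC3 at -0.11, ORC5 at -0.15 and ORC6 at -0.14. With the GC and length trend removed ORC1, ORC3 and ORC5 were not called either (-0.11, -0.06 and -0.13), and ORC1 was not called without Control 1 (adjusted p = 0.0892) or Control 2 (0.104). CDC6, the ATPase that works with ORC in loading, was at 31.4 and 33.1 FPKM in the controls, 28.1 and 27.3 FPKM without glucose and 20.9 FPKM without glutamine. The glutamine-deprived library was the lowest, at -0.60 ± 0.05 (adjusted p = 0.000121, limma), and without glucose the value was -0.21 ± 0.04 (adjusted p = 0.00476, limma; 0.0745 without Control 2). The 2 values were -0.30 (adjusted p = 0.218) and -0.10 (adjusted p = 0.653) under the common total.

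Of the 10 origin firing genes, 2 rose and 6 fell in glucose deprivation and 1 rose and 9 fell in glutamine deprivation, beside the 28.1% and 26.3% of all genes, and 52.3% and 64.6% of those averaging 10 FPKM or more, that were lower. Under the common total 2 were called higher and 2 lower, and 1 higher and 2 lower, with 5 of the 10 above 0 in glutamine deprivation. All 4 subunits of GINS, the ring that completes the active helicase with CDC45, fell in both media, GINS3 being at 0.08 under the common total and 0.03 with the GC and length trend removed in glutamine deprivation. The calls of GINS3 were lost without Control 1 (adjusted p = 0.114 in glucose and 0.0752 in glutamine deprivation), Control 2 (0.238 and 0.138) and, in glucose deprivation, Glc_deficiency 1 (0.139) or Glc_deficiency 2 (0.0618). GINS1 (chr20:25407727-25452628, plus strand) was at 19.4 FPKM in both controls, 11.0 and 12.2 FPKM without glucose and 10.6 FPKM without glutamine. Every deprived library stood well under the controls, and the log2 fold changes were -0.70 ± 0.05 (adjusted p = 5.5e-05, limma) and -0.81 ± 0.07 (adjusted p = 9.68e-05, limma). Within the complex GINS2 was the highest and GINS3 the lowest in every library, with ratios of 3.96 and 3.77 in the controls and 2.89 in glutamine deprivation.

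The subunits of the origin-firing kinase moved apart without glucose. CDC7, the catalytic subunit (chr1:91500893-91525764, plus strand), was at 38.9 and 41.5 FPKM in the controls, 52.6 and 48.1 FPKM without glucose and 32.9 FPKM without glutamine. Glucose-deprived libraries were above and the glutamine-deprived library below both controls. Its log2 fold change was 0.32 ± 0.06 (adjusted p = 0.00214, limma) in glucose deprivation and -0.28 ± 0.07 (adjusted p = 0.0112, limma) in glutamine deprivation, where it was 0.03 under the common total, 0.02 with the GC and length trend removed, and not called without Control 2 (adjusted p = 0.106). DBF4, the subunit that CDC7 needs for activity (chr7:87876216-87909541, plus strand), was at 18.2 and 19.4 FPKM in the controls, 12.2 and 11.8 FPKM without glucose and 10.3 FPKM without glutamine. All deprived libraries were below the controls, with log2 fold changes of -0.61 ± 0.05 (adjusted p = 5.86e-05, limma) and -0.81 ± 0.06 (adjusted p = 6.68e-05, limma). In DBF4, 142 exon bases overlap SLC25A40 on the opposite strand. The other gene that rose, TICRR, which brings CDC45 to origins, was at 8.0 and 9.10 FPKM in the controls, 12.5 and 12.9 FPKM without glucose and 10.6 FPKM without glutamine. It rose by 0.52 ± 0.06 (adjusted p = 0.000294, limma) and 0.28 ± 0.07 (adjusted p = 0.016, limma; 0.0901 without Control 1). The second value was 0.09 with the GC and length trend removed (adjusted p = 0.317) and 0.13 under upper-quartile scaling (adjusted p = 0.185).

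Among the 4 fork protection genes, which stabilise forks and signal to the checkpoint, 1 rose and 1 fell in glucose deprivation and 1 rose and 2 fell in glutamine deprivation, and under the common total only TIMELESS in the first (higher) and TIPIN in the other (lower) were called. TIMELESS (chr12:56416373-56449403, minus strand) was at 22.9 and 22.5 FPKM in the controls, 32.8 and 33.0 FPKM without glucose and 25.0 FPKM without glutamine. The rise without glucose was large against the spread of the replicates, at 0.52 ± 0.04 (adjusted p = 4.57e-05, limma). Without glutamine the value was 0.13 ± 0.05 (adjusted p = 0.0488, limma), but -0.03 under upper-quartile scaling, 0.04 with the GC and length trend removed (adjusted p = 0.475), and not called without Control 1 (adjusted p = 0.144) or Control 2 (adjusted p = 0.208) or with the replicate block (adjusted p = 0.162). TIPIN, the binding partner of TIMELESS (chr15:66336206-66386746, minus strand), was at 20.7 and 23.4 FPKM in the controls, 19.4 and 20.3 FPKM without glucose and 12.8 FPKM without glutamine. Only the glutamine-deprived library was far from the others, and its log2 fold change of -0.74 ± 0.08 (adjusted p = 0.000226, limma) was called in all alternatives, while that of glucose deprivation was -0.15 ± 0.06 (adjusted p = 0.0864, limma). CLSPN, which passes the checkpoint signal to CHK1, was at 11.9 and 12.7 FPKM in the controls, 10.8 and 9.62 FPKM without glucose and 9.49 FPKM without glutamine. Its log2 fold changes were -0.25 ± 0.06 (adjusted p = 0.00928, limma) and -0.34 ± 0.07 (adjusted p = 0.00627, limma). The first was not called without Control 1 (-0.29), Control 2 (-0.21) or Glc_deficiency 2 (-0.18), and the other without Control 2 (-0.30). These fits have fewer degrees of freedom, and without Control 1 the value was not smaller. With a common total the 2 values were -0.15 (adjusted p = 0.474) and -0.05 (adjusted p = 0.841).

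Of the 9 polymerase and primase genes, 3 rose and 2 fell in glucose deprivation and 1 rose and 5 fell in glutamine deprivation, while under the common total 2 and 1 were called higher and 0 lower in either. PRIM1, the catalytic subunit of primase, which lays the RNA primers (chr12:56731596-56752373, minus strand), was at 24.5 and 24.9 FPKM in the controls, 34.0 FPKM in both libraries without glucose and 19.5 FPKM without glutamine. The groups lay on opposite sides of the controls. The log2 fold changes were 0.44 ± 0.04 (adjusted p = 0.000118, limma) and -0.32 ± 0.05 (adjusted p = 0.0015, limma), the second being -0.02 under the common total (adjusted p = 0.946) and -0.08 with the GC and length trend removed (adjusted p = 0.218). In PRIM1, 527 exon bases overlap other annotated genes, among them NACA and HSD17B6, and the strand setting of the counting is not given in the sources used here. PRIM2, the other primase subunit, did not pass in either medium, at 0.09 and -0.15, with 7.73 to 9.66 FPKM. POLA1 had the highest FPKM of the 4 polymerase alpha-primase genes in the control and glutamine-deprived libraries, and PRIM1 in both glucose-deprived ones. This order rests on the gene lengths used, which are not given. All exons of PRIM1 cover 2437 bases and its longest transcript has 1459, against 6336 and 5486 for POLA1.

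POLE, the catalytic subunit of the leading-strand polymerase (chr12:132623753-132687365, minus strand), was at 11.5 and 11.7 FPKM in the controls, 15.7 and 15.6 FPKM without glucose and 15.4 FPKM without glutamine. The 3 deprived libraries were nearly level with each other and above the controls, with log2 fold changes of 0.40 ± 0.04 (adjusted p = 0.000137, limma) and 0.38 ± 0.05 (adjusted p = 0.000492, limma). With the GC and length trend removed the second was 0.12 (adjusted p = 0.062). POLE2, its accessory subunit, was at -0.02 and -0.30 (adjusted p = 0.801 and 0.00467, limma), the second being -0.02 under the common total (adjusted p = 0.955), -0.06 with the GC and length trend removed (adjusted p = 0.41) and -0.16 with the levels as deposited (adjusted p = 0.0911). POLD1, the catalytic subunit of the lagging-strand polymerase, rose without glucose, by 0.24 ± 0.05 (adjusted p = 0.00483, limma), while POLD2 and POLD3 fell, by 0.13 and 0.18 on the log2 scale. Without glutamine POLD2 and POLD3 passed at -0.24 and -0.18, values that became 0.07 and 0.11 under the common total. In glucose deprivation the 3 values were 0.35, -0.02 and -0.08 under the common total (adjusted p = 0.0744, 0.935 and 0.737). The calls of all 3 in glucose deprivation were lost without Control 1 (adjusted p = 0.052, 0.294 and 0.108 for POLD1, POLD2 and POLD3) or Control 2 (0.0743, 0.112 and 0.052), that of POLD2 also without Glc_deficiency 1 (0.183), and those of POLD2 and POLD3 in glutamine deprivation without Control 1 (0.0937 and 0.143) or Control 2 (0.0508 and 0.0744).

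Genes of the sliding clamp, its loader and the single-strand binding protein RPA all passed in both media. In glucose deprivation 8 of 9 genes fell and 1 rose, and in glutamine deprivation all 9 fell, with medians of -0.20 and -0.51. Of all genes 28.1% and 26.3% were lower. Genes averaging 10 FPKM or more were lower in 52.3% and 64.6% of cases, with medians of -0.16 and -0.31. Under the common total 6 of the 9 were still below 0 in glutamine deprivation and 1 passed, and 2 were called in glucose deprivation, both lower. PCNA, the clamp that holds polymerases on DNA (chr20:5114953-5126626, minus strand), was the most abundant of the 57 genes, at 219.5 and 217 FPKM in the controls, 149 and 158 FPKM without glucose and 153 FPKM without glutamine. All deprived libraries were lower, by nearly the same amount. The log2 fold change was -0.51 ± 0.05 (adjusted p = 9.69e-05, limma) in glucose deprivation and -0.51 ± 0.06 (adjusted p = 0.000274, limma) in glutamine deprivation, the latter -0.19 under the common total (adjusted p = 0.457). PCNA has 3 annotated processed copies, PCNAP1, PCNAP3 and PCNAP4, with which reads could be shared.

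RPA coats the exposed single strand at the fork, and its 3 subunits fell in both media, with RPA1 at 0.13 under the common total in glutamine deprivation and its call there lost without Control 1 (adjusted p = 0.125) or Control 2 (0.0904). RPA2 was at 77.2 and 82.5 FPKM in the controls, 49.8 and 53.4 FPKM without glucose and 58.5 FPKM without glutamine, with log2 fold changes of -0.62 ± 0.05 (adjusted p = 7.29e-05, limma) and -0.44 ± 0.06 (adjusted p = 0.00101, limma; -0.13 with adjusted p = 0.628 under the common total). RPA3, the smallest subunit, was at 19.0 and 18.1 FPKM in the controls, 13.2 and 13.5 FPKM without glucose and 10.3 FPKM without glutamine. Its log2 fold changes were -0.45 ± 0.05 (adjusted p = 0.000209, limma; 0.0636 under the common total) and -0.78 ± 0.06 (adjusted p = 6.88e-05, limma), so that of the 3 subunits RPA2 had the lowest log2 fold change without glucose and RPA3 without glutamine. The ratio of RPA2 to RPA3 was 4.06 and 4.56 in the controls, 3.77 and 3.96 without glucose and 5.66 without glutamine.

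Of the clamp loader genes, RFC2 to RFC5 fell in both media, where RFC4 was at 0.11 under the common total in glutamine deprivation. Under the common total RFC2 to RFC5 were at -0.09, -0.06, -0.02 and -0.07 in glucose deprivation, and with the GC and length trend removed RFC3, RFC4 and RFC5 were at -0.05, -0.09 and -0.05 there and not called. In glucose deprivation the calls of RFC3, RFC4 and RFC5 were lost without Control 1 (adjusted p = 0.067, 0.223 and 0.0958) or Control 2 (0.083, 0.113 and 0.0586), and that of RFC4 also without Glc_deficiency 1 (0.091) or 2 (0.0783) and, in glutamine deprivation, without Control 1 (0.119) or Control 2 (0.0734). RFC2 was at 32.0 and 31.7 FPKM in the controls, 26.6 and 28.6 FPKM without glucose and 21.4 FPKM without glutamine, with log2 fold changes of -0.20 ± 0.05 (adjusted p = 0.01, limma) and -0.55 ± 0.06 (adjusted p = 0.000255, limma). The first was not called without Control 1 (adjusted p = 0.0926) or Control 2 (0.0815), and the second was -0.25 under the common total (adjusted p = 0.287). RFC1, the large subunit, was at 24.9 and 25.7 FPKM in the controls, 28.0 and 27.3 FPKM without glucose and 22.1 FPKM without glutamine. These differences were small, 0.12 ± 0.04 (adjusted p = 0.0371, limma) and -0.19 ± 0.05 (adjusted p = 0.017, limma). The rise was lost without Control 1 (adjusted p = 0.239), Control 2 (0.113), Glc_deficiency 1 (0.108) or Glc_deficiency 2 (0.0508) and with the replicate block (0.0812), and was 0.05 under upper-quartile scaling (0.384), and the fall without Control 1 (0.0701) or Control 2 (0.125) and with the block (0.059), and it was 0.12 under the common total.

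**Figure D2:**
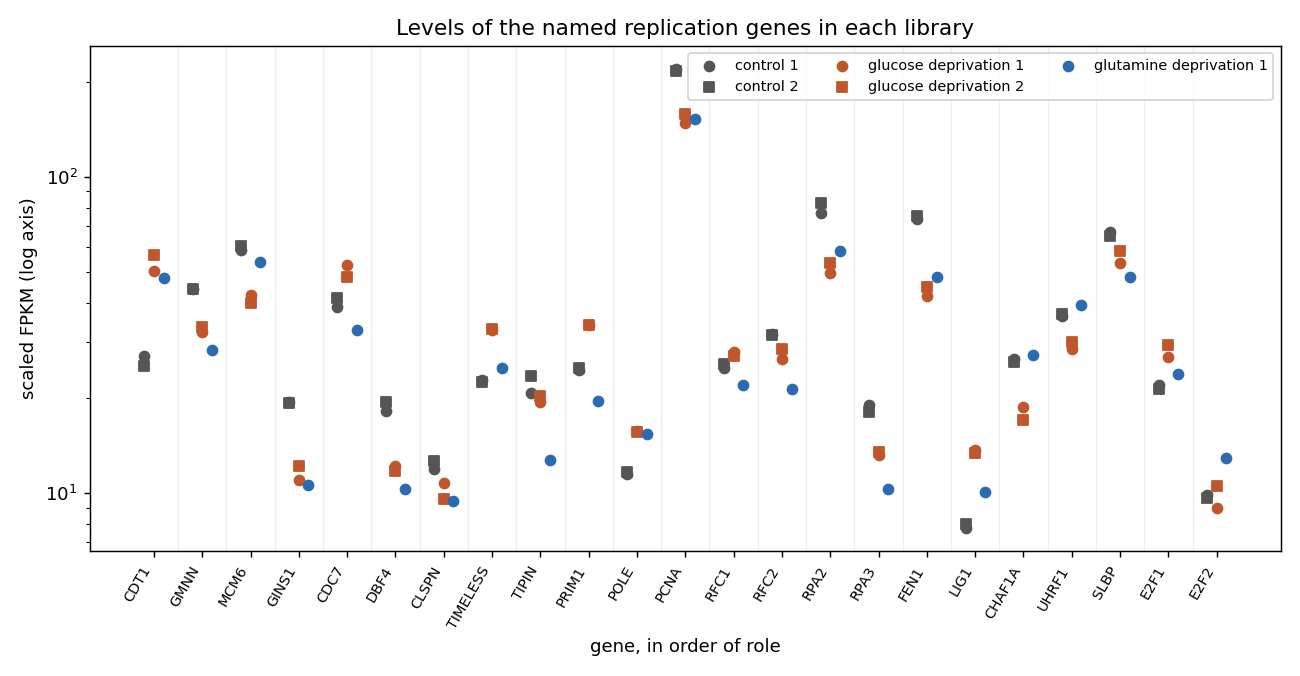
Scaled FPKM on a log axis of the 23 genes described by library: grey, 2 control libraries; orange, 2 glucose-deprived libraries; blue, 1 glutamine-deprived library; circles are replicate 1 and squares replicate 2. Replicates of a group lie close together, CDT1 and LIG1 are higher in all 3 deprived libraries, and FEN1, GINS1, DBF4 and PCNA are lower in all 3.

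On the lagging strand, the flap nuclease and the ligase that follow each other in joining Okazaki fragments went in opposite directions. FEN1, the nuclease (chr11:61792637-61797244, plus strand), was at 73.9 and 75.2 FPKM in the controls, 42.1 and 45.0 FPKM without glucose and 48.4 FPKM without glutamine. Its fall without glucose, -0.76 ± 0.05 (adjusted p = 2.14e-05, limma), was the largest of the 57 genes in that medium, and without glutamine the value was -0.61 ± 0.06 (adjusted p = 0.000137, limma; -0.30 with adjusted p = 0.211 under the common total). In FEN1, 215 exon bases overlap TMEM258 and FADS2. LIG1, the ligase (chr19:48115445-48170603, minus strand), was at 7.77 and 8.0 FPKM in the controls, 13.7 and 13.4 FPKM without glucose and 10.1 FPKM without glutamine. All deprived libraries were above the controls, those without glucose the most, with log2 fold changes of 0.71 ± 0.04 (adjusted p = 2.14e-05, limma) and 0.32 ± 0.05 (adjusted p = 0.00175, limma). DNA2, a nuclease for long flaps, was at -0.00 and -0.22 (adjusted p = 0.968 and 0.0177, limma), the second being 0.08 under the common total, -0.01 with the GC and length trend removed (adjusted p = 0.913) and not called without Control 1 (adjusted p = 0.114).

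The 4 genes of chromatin behind the fork all fell without glucose, and 1 of them fell without glutamine. Of these calls only that of CHAF1A in glucose deprivation was kept under the common total. CHAF1A, the large subunit of the histone chaperone CAF-1 (chr19:4402662-4445018, plus strand), was at 26.5 and 26.0 FPKM in the controls, 18.8 and 17.1 FPKM without glucose and 27.4 FPKM without glutamine. Only the glucose-deprived libraries were apart, at -0.53 ± 0.05 (adjusted p = 0.00015, limma), and the value without glutamine was 0.06 ± 0.06 (adjusted p = 0.495, limma). CHAF1B, its partner, was at -0.29 and -0.10, the first being -0.19 under the common total (adjusted p = 0.345). UHRF1, which brings DNA methyltransferase to newly copied DNA, was at 36.3 and 36.9 FPKM in the controls, 28.5 and 30.1 FPKM without glucose and 39.4 FPKM without glutamine, with log2 fold changes of -0.31 ± 0.04 (adjusted p = 0.000691, limma; -0.20 with adjusted p = 0.339 under the common total) and 0.11 ± 0.05 (adjusted p = 0.133, limma). SLBP, which binds the stem-loop of histone mRNA, was at 66.8 and 65.2 FPKM in the controls, 53.7 and 58.2 FPKM without glucose and 48.4 FPKM without glutamine, and passed in both, at -0.24 ± 0.05 (adjusted p = 0.00536, limma) and -0.44 ± 0.06 (adjusted p = 0.000837, limma). Its call in glucose deprivation was lost without Control 1 (adjusted p = 0.0771) or Control 2 (0.0555), and under the common total the values were -0.12 (adjusted p = 0.573) and -0.13 (adjusted p = 0.628).

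Of the 4 E2F genes, 1 rose in each medium and none fell. E2F1, an activator of replication genes (chr20:33675683-33686404, minus strand), was at 22.0 and 21.4 FPKM in the controls, 27.0 and 29.4 FPKM without glucose and 23.8 FPKM without glutamine. It rose without glucose by 0.36 ± 0.05 (adjusted p = 0.000874, limma), and the value without glutamine was 0.13 ± 0.06 (adjusted p = 0.131, limma). E2F2, a related activator (chr1:23506430-23531220, minus strand), was at 9.91 and 9.65 FPKM in the controls, 9.02 and 10.5 FPKM without glucose and 13.0 FPKM without glutamine. Here the glucose-deprived libraries straddled the controls, while the glutamine-deprived library was above all others, at 0.37 ± 0.08 (adjusted p = 0.00761, limma), a call lost without Control 1 (adjusted p = 0.0599) or Control 2 (0.0796) and under upper-quartile scaling (0.22, adjusted p = 0.0587). The repressors E2F7, at 5.10 to 6.19 FPKM, and E2F8 did not pass in either medium, with values of 0.03 to 0.18.

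Ratios between genes of 1 library do not depend on the scaling of libraries, and they show the partner genes above most plainly. The pairs were chosen after their values had been seen and carry no test. CDT1 relative to its inhibitor GMNN was 0.615 and 0.570 in the controls, 1.56 and 1.68 without glucose and 1.69 without glutamine. Whether this ratio lies below or above 1 rests on the gene lengths used, which are not given. All exons of GMNN cover 2476 bases and its longest transcript has 1262, against 3336 and 3240 for CDT1. Only the rise of the ratio between libraries is read here. CDC7 relative to DBF4 was 2.13 and 2.14 in the controls, 4.30 and 4.09 without glucose and 3.19 without glutamine. TIMELESS relative to TIPIN was 1.10 and 0.959 in the controls, 1.69 and 1.63 without glucose and 1.95 without glutamine. LIG1 relative to FEN1 was 0.105 and 0.106 in the controls, 0.326 and 0.298 without glucose and 0.209 without glutamine. In each of the 4 pairs no deprived library overlapped the controls.

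**Figure D3:**
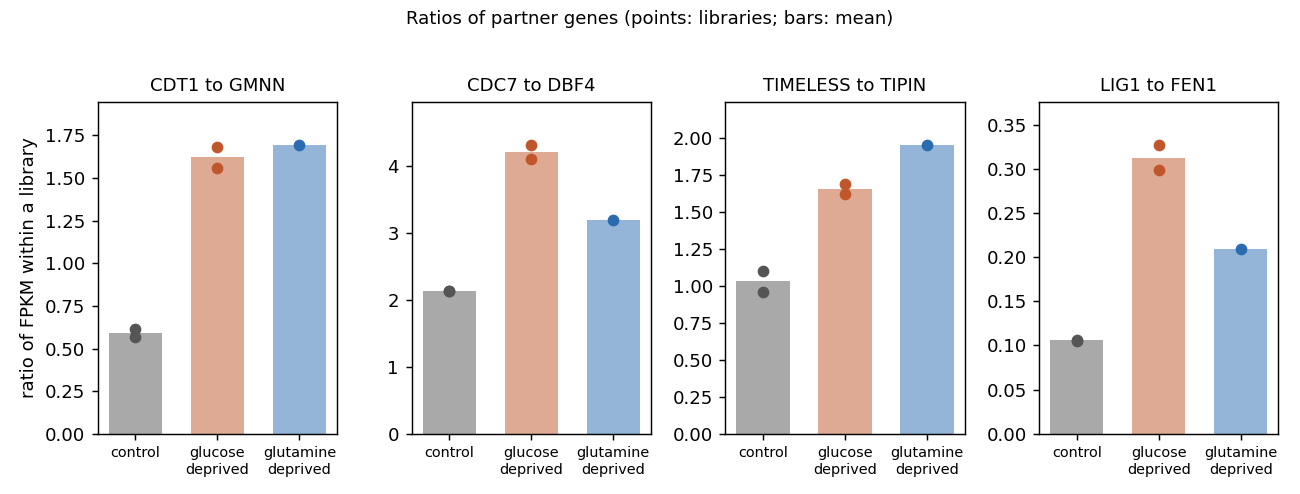
Ratio of FPKM between partner genes within each library for 4 pairs, with points for libraries and bars for the group mean (2 control, 2 glucose-deprived and 1 glutamine-deprived library). Each ratio is higher in every deprived library than in both controls, CDT1 to GMNN passing from 0.570 and 0.615 to 1.56 and above.

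Set against each other directly, the deprived media differed in 33 of the 57 genes, 7 of them higher and 26 lower in glutamine than in glucose deprivation, where 44.3% of all genes were called, 22.4% higher and 22.0% lower. Among genes averaging 10 FPKM or more, as most of the 57 did, 18.1% were higher and 43.6% lower. The median log2 difference of the 57 genes was -0.15, against 0.01 over all genes and -0.13 over those averaging 10 FPKM or more. With the levels as deposited the split was 12 higher and 14 lower, under the common total 4 and 1, and under upper-quartile scaling 4 and 34. Leaving out a control library changed no direct difference, because controls enter here only through the shared estimate of the spread. Fewer of the 57 genes were then called. PRIM1 had the largest difference, -0.77 ± 0.05 (adjusted p = 9.41e-05, limma; 1 library against 2), followed by CDC7 at -0.60 ± 0.07 (adjusted p = 0.000539, limma; -0.40 with adjusted p = 0.118 under the common total) and TIPIN at -0.60 ± 0.08 (adjusted p = 0.000909, limma; -0.40 with adjusted p = 0.0874 under the common total). In the other direction CHAF1A was higher by 0.58 ± 0.06 (adjusted p = 0.000465, limma), UHRF1 by 0.42 ± 0.05 (adjusted p = 0.000792, limma) and MCM6 by 0.38 ± 0.05 (adjusted p = 0.00139, limma). The calls of PRIM1, CHAF1A, UHRF1 and MCM6 held in every alternative run, and no other of the 33 did.

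By role, all 10 origin firing genes and all 4 fork protection genes had a lower level without glutamine than without glucose, with 5 and 2 passing the test, although under the common total 5 of the 10 and 2 of the 4 were above 0 and none passed (limma). Over all genes 22.0% were lower, and among those averaging 10 FPKM or more 43.6%. Of the 4 chromatin genes 3 were higher without glutamine and SLBP was lower. TIMELESS and LIG1 were lower without glutamine, at -0.39 ± 0.05 (adjusted p = 0.000737, limma) and -0.39 ± 0.05 (adjusted p = 0.00105, limma), but under the common total at -0.19 (adjusted p = 0.517) and -0.20 (adjusted p = 0.453). E2F2 was higher, by 0.38 ± 0.08 (adjusted p = 0.00868, limma; 0.122 with no filter on low values). E2F1 was lower, at -0.23 ± 0.06 (adjusted p = 0.0214, limma), and at -0.04 under the common total (adjusted p = 0.918). At unchanged differences the call of E2F2 was lost without Control 2 and that of E2F1 without either control. Without Glc_deficiency 2 E2F1 was at -0.17 and not called. The direct differences of GMNN, DBF4 and SLBP, at -0.21, -0.20 and -0.20, were -0.01, -0.01 and -0.00 under the common total (adjusted p = 0.977, 0.975 and 0.996, limma). Without Control 1 or Control 2 their calls were also lost, though the differences stayed the same. Without Glc_deficiency 1 DBF4 was at -0.17 and not called. Without Glc_deficiency 2 DBF4 was at -0.22 and SLBP at -0.14, and neither was called. For PCNA, POLE, CDT1 and GINS1 the direct differences were -0.00 ± 0.06, -0.02 ± 0.05, -0.15 ± 0.08 and -0.11 ± 0.07, and none passed, which does not show that the media act alike on them.

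**Figure D4:**
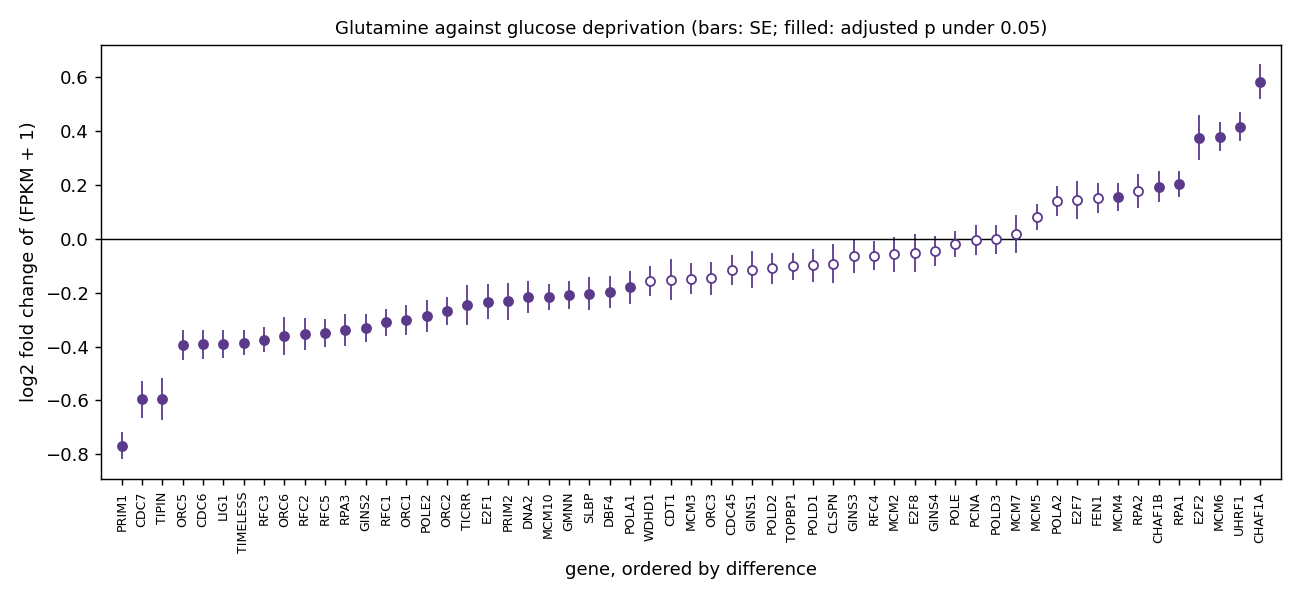
Log2 difference of (FPKM + 1) between glutamine deprivation (1 library) and glucose deprivation (2 libraries) for the 57 genes, ordered by size; bars are the standard error and filled points have an adjusted p under 0.05. PRIM1, CDC7 and TIPIN form the low end at -0.77 to -0.60, and CHAF1A, UHRF1, MCM6 and E2F2 the high end at 0.38 to 0.58.

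Of 39 replication partners, genes that work with these 57 but are not among them, 13 rose and 13 fell in glucose deprivation, where 26.4% of all genes were higher and 28.1% lower. In glutamine deprivation 9 rose and 18 fell, beside 24.7% and 26.3% of all genes, and the medians of the partners were 0.06 and -0.15. Apart from the 18 that fell without glutamine, these counts are close to the shares over all genes. Of genes averaging 10 FPKM or more, a level that many partners reached, 52.3% were lower without glucose and 64.6% without glutamine. Of the same genes 21.3% and 10.8% were higher. The share of partners that fell without glutamine was below that of genes at such levels, so the 18 are not read as an excess. The genes named from this list and the following one are those with the largest rise or fall in each medium and those with opposite calls, chosen after their values were seen. POLE3, a histone-fold accessory subunit of the leading-strand polymerase, was at 44.4 and 45.4 FPKM in the controls, 24.8 and 24.9 FPKM without glucose and 25.5 FPKM without glutamine. It fell by 0.83 and 0.79 on the log2 scale (adjusted p = 1.15e-05 and 4.93e-05, limma), while the catalytic subunit POLE rose in both media. Its partner POLE4 behaved like PRIM1, at 10.1 and 9.54 FPKM in the controls, 12.7 and 13.3 FPKM without glucose and 6.92 FPKM without glutamine (0.37 and -0.45, adjusted p = 0.00129 and 0.00153, limma; the latter -0.17 with adjusted p = 0.465 under the common total). ASF1A, a chaperone that hands histones to CAF-1, fell in both media, at -0.54 and -0.85 (adjusted p = 0.000161 and 8.41e-05, limma).

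The largest rises among the partners were CHTF18, of an alternative clamp loader, without glucose (0.51, adjusted p = 5.7e-05, limma) and RMI1, of the complex that resolves recombination intermediates, without glutamine (0.68, adjusted p = 0.00033, limma). CHTF8, which works with CHTF18, fell without glucose (-0.31, adjusted p = 0.000754) and rose without glutamine (0.20, adjusted p = 0.0155, limma), the rise being lost without Control 1 (adjusted p = 0.105) or Control 2 (0.0564) and at 0.04 under upper-quartile scaling (0.522), and the fall being -0.20 under the common total (0.309). DBF4B, a second activator of CDC7, rose without glutamine (0.31, adjusted p = 0.00414, limma), where DBF4 fell. Its value without glucose was -0.15 (adjusted p = 0.031, limma), a call lost without Control 1 (adjusted p = 0.147), Control 2 (0.128), Glc_deficiency 1 (0.0733) or Glc_deficiency 2 (0.0632) and at -0.06 with the GC and length trend removed (0.395).

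Of 19 E2F partners, pocket proteins and cyclins of the G1 to S transition, 3 rose and 9 fell in glucose deprivation and 2 rose and 11 fell in glutamine deprivation, with medians of -0.12 and -0.20. Over all genes 28.1% and 26.3% were lower and 26.4% and 24.7% higher. Of those averaging 10 FPKM or more, 52.3% and 64.6% were lower. CCNA2, the S-phase cyclin, was at 63.1 and 69.6 FPKM in the controls, 35.9 and 37.1 FPKM without glucose and 38.1 FPKM without glutamine, with log2 fold changes of -0.84 (adjusted p = 2.52e-05, limma) and -0.78 (adjusted p = 0.000102, limma). CCNE2, a cyclin of S-phase entry, fell in both, at -0.71 and -0.84 (adjusted p = 3.92e-05 and 7.08e-05, limma). RBL2, the pocket protein p130 that holds E2F targets silent in resting cells, rose without glucose (0.46, adjusted p = 0.000173, limma), and its value without glutamine was 0.18 (adjusted p = 0.0328, limma; 0.182 without Control 1, 0.068 without Control 2, and 0.03 with adjusted p = 0.722 under upper-quartile scaling). TFDP2, a dimer partner of E2F factors, passed in both at 0.21 and 0.24 (adjusted p = 0.00287 and 0.00513, limma). The second was 0.03 with the GC and length trend removed (adjusted p = 0.627), 0.09 under upper-quartile scaling (adjusted p = 0.17) and not called without Control 2 (adjusted p = 0.0545), and the first was not called under the common total (0.32, adjusted p = 0.104).

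Markers of dividing cells also moved with the media. All 7 (MKI67, CCNB1, CDK1, PLK1, AURKA, BUB1 and TOP2A) were lower without glucose, and without glutamine 5 were lower and 1 higher, with summed levels of 351 and 363 FPKM in the controls, 214 and 212 FPKM without glucose and 272 FPKM without glutamine. Of all genes 28.1% and 26.3% were lower in the 2 media, and of those averaging 10 FPKM or more 52.3% and 64.6%. TOP2A is also among the 39 replication partners. Without it the 6 others were lower without glucose, 4 lower and 1 higher without glutamine, and summed to 238 and 246 FPKM, 133 and 132 FPKM, and 178 FPKM. None was at 0 in any library. AURKA, a mitotic kinase, fell by 1.37 and 0.81 on the log2 scale in the 2 media (adjusted p = 3.15e-06 and 5.45e-05, limma), and without glucose by more than any of the 57 replication genes. MKI67 was at 22.6 and 23.7 FPKM in the controls, 20.6 and 17.3 FPKM without glucose and 39.0 FPKM without glutamine, a rise of 0.73 (adjusted p = 0.000523, limma) in the latter. Without glucose its value of -0.28 (adjusted p = 0.015, limma) was not called without Control 1 (adjusted p = 0.0922), Control 2 (0.156) or Glc_deficiency 2, where it was -0.16 (0.0503), or under the common total, where it was -0.17 (0.439). The part of these markers in the replication genes' differences was not tested.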

How the data were processed

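Total RNA of 95D cells, depleted of rRNA, was sequenced with 150-base paired reads, per the labels' protocols. Per the submitters' processing notes, the authors used HISAT2 2.0.5, StringTie and the build hg38. Annotation and strand setting are not given in the sources used here. FPKM was taken as the unit the authors deposited; no header names the unit, and low values of single-exon genes fall on steps of whole reads (95.1% to 95.8% within 0.05 reads), from which depth was inferred. One table per group was used, 5 of 6 labelled libraries, and 1 column was not mapped or used because its header names another group's sample.

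The FPKM were scaled between libraries by an unweighted trimmed mean of log ratios (30% of ratios, 5% of abundances), and limma 3.58.1 in R 4.3.3 was fitted to log2(FPKM + 1), a scale that understates changes of low genes. Genes reaching 1 FPKM in any library entered, with a coefficient per group, 2 residual degrees of freedom and variances moderated over inferred reads. The spread of the lone glutamine-deprived library is thus assumed to equal that of the other groups. Tests are two-sided, with Benjamini-Hochberg adjustment over all genes and a threshold of 0.05. The scripts were tested on simulated data. Gene positions and exon overlaps are from GENCODE release 29 (GRCh38). Python 3.11.15 was used for promoters and figures.

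The genes, roles and lists were chosen with earlier results of these data known. Values by library are given for 23 genes: per role the 2 largest changes past the threshold in each deprivation, every gene with opposite calls, and the 5 largest direct differences; others named have their own reason in the text. Alternatives varied scaling, filter, pseudocount (0.1), variance trend, robustness, libraries entered and a replicate block. With a control or glucose-deprived library left out, fewer than 2 residual degrees of freedom remained. A call could then be lost at an unchanged value. Removal of a GC and length trend was added after seeing the data, with values for 96.1% of genes.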

Additional observations from a re-analysis of the deposited data

How the results depend on the processing

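Of the calls among the 57 genes, 14 of 38 in glucose deprivation (7 higher, 7 lower), 6 of 45 in glutamine deprivation (CDT1, LIG1, GINS1, DBF4, TIPIN and RPA3) and 4 of 33 in the direct comparison held in every alternative run. Scaling to a common total left 15, 10 and 5 genes called, of them 7 lower in glucose deprivation, 4 lower in glutamine deprivation and 4 higher and 1 lower in the direct comparison. Levels as deposited gave 13 higher and 21 lower in glutamine deprivation and 12 higher and 14 lower directly. Upper-quartile scaling gave 3 higher in glutamine deprivation and 4 higher directly. With no filter 25 genes (18 lower), 28 genes (24 lower) and, directly, 4 higher were called. With the GC and length trend removed 25 were lower in glutamine deprivation. With each library left out in turn, the called genes numbered 24 to 39 (16 to 29 lower), 27 to 47 (3 to 7 higher, 23 to 40 lower) and, directly, 3 to 8 higher.

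Under the common total 11, 20 and 19 of the 57 values turned sign in glucose deprivation, glutamine deprivation and the direct comparison, of them 0, 16 and 1 of called genes. The called genes that turned in glutamine deprivation were TOPBP1 0.16, POLA1 0.13, MCM3 0.13, RPA1 0.13, MCM2 0.12, RFC1 0.12, POLD3 0.11, RFC4 0.11, CDC45 0.095, ORC1 0.095, GINS3 0.075, DNA2 0.076, POLD2 0.069, CDC7 0.031, MCM4 0.031 and MCM7 0.0074, and directly POLA1 0.017. In glutamine deprivation TOPBP1 was also 0.011 with the levels as deposited, TIMELESS -0.025 under upper-quartile scaling, and GINS3 0.032, CDC7 0.016 and POLD3 0.0051 with the GC and length trend removed. MCM5 and PRIM2, not called in the values reported, were called with the opposite sign at -0.15 under upper-quartile scaling and 0.17 with the GC and length trend removed. The cause was not tested.

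The labels do not say whether replicate numbers pair the samples. Deviations of the same-numbered control and glucose-deprived libraries had a correlation of -0.02, which cannot settle it. With the replicate block 34, 38 and 26 genes were called. The glutamine-deprived group has 1 library, so its own spread was not measured, and FPKM carry no stated depth.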
